A study of Bos taurus with 6 samples.

Results

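The genes described here are 10 pluripotency and inner cell mass factors: POU5F1, SOX2, NANOG, KLF4, SALL4, LIN28A, STAT3, LIFR, IL6ST and FGF4. They were chosen by name, with every probe set annotated to 1 of these symbols kept, a probe set being the group of short oligonucleotides that measures a transcript on the array. Probe sets were found for 4 of the 10 genes, POU5F1, SOX2, KLF4 and STAT3, and these were 5 of the 24036 probe sets in the table. All 5 varied between arrays and were among the 18937 probe sets tested. NANOG, SALL4, LIN28A, LIFR, IL6ST and FGF4, 6 genes in all, carried no probe set in the annotation used and were not analysed here.

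In mammalian embryos POU5F1 (OCT4) and SOX2 bind DNA together and, with NANOG, hold cells of the inner cell mass in a state from which every tissue of the fetus can arise. The zinc finger factor KLF4 supports the same network, and in mouse cells STAT3 carries the signal of the cytokine LIF from its receptors to the nucleus. The first lineage decision sets the inner cell mass apart from the trophectoderm, the outer layer that builds the placenta, and the inner cell mass then gives rise to the epiblast and the hypoblast. In cattle POU5F1 transcripts persist in the trophectoderm of the blastocyst, whereas SOX2 is restricted to the inner cell mass.

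Bovine embryos made by in vitro fertilization were followed from compacted morulae on, and those of both groups had compacted earlier in culture. On day 8 degenerative embryos had failed to complete the passage from morula to blastocyst, and blastocysts showed a clear inner cell mass and a blastocoele. Each group was measured as 3 pools, A, B and C, with 20 different embryos in each pool and 1 array per pool. No embryo of either group received a treatment, and each pool mixed the offspring of several cows and bulls. Whole embryos were lysed, so fewer cells of a type and less RNA per cell cannot be told apart. Values are GCRMA expression values on the log2 scale, with a floor at 2.12, and on each array 27.4% to 28.6% of probe sets lay within 0.01 of it. Degenerative pool A stood apart from the other arrays, with a Pearson correlation of 0.933 to 0.938 with each of them over the tested probe sets, while the other 5 arrays correlated with each other at 0.949 to 0.994. Each member is therefore given with and without this pool.

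POU5F1, SOX2 and KLF4 were measured well above the floor in every pool, with higher means in degenerative embryos than in blastocysts. The mean was 1.39-fold higher for POU5F1, 2.04-fold higher for SOX2 and 1.43-fold higher for KLF4. None of these differences passed the test after adjustment. STAT3 differed by less than the spread between pools, and the direction of each of its 2 probe sets depended on a single pool.

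**Figure D1:**
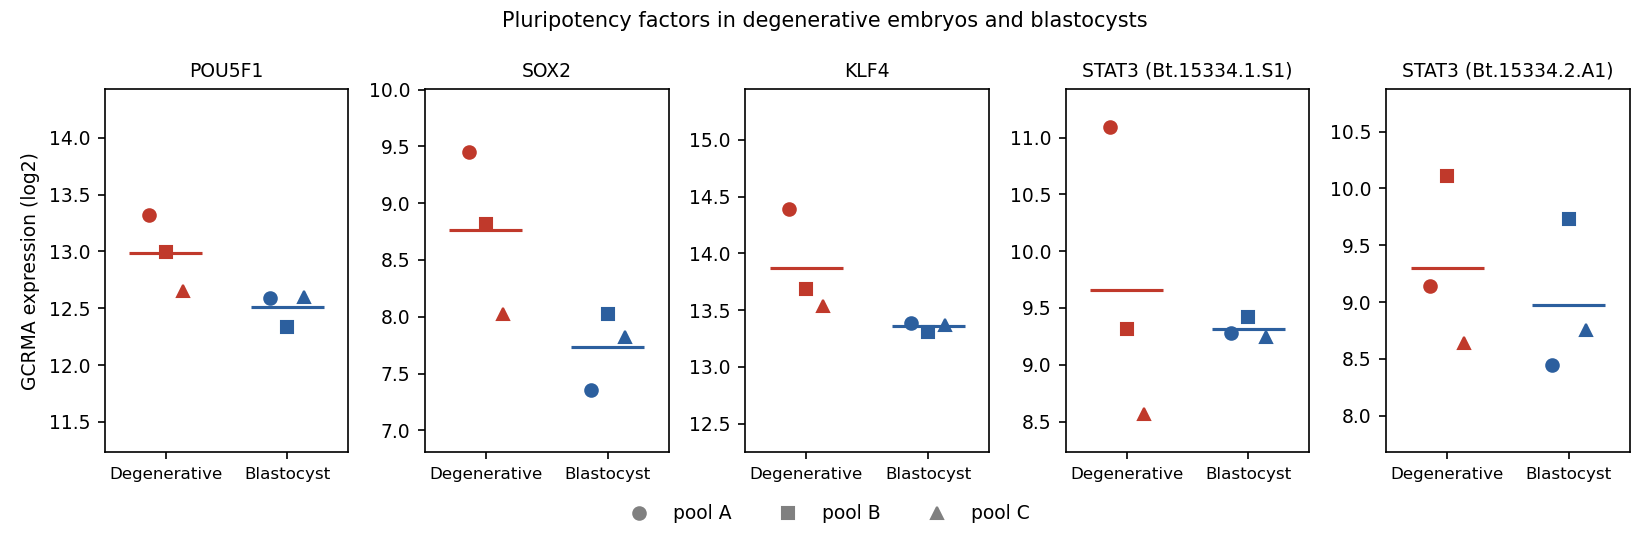
GCRMA expression (log2) of the 5 probe sets in each pool, degenerative embryos left and blastocysts right, with pools A, B and C as marker shapes and a line at each group mean; each panel has its own log2 range of equal height. Degenerative pool A was the highest of the 6 pools in all panels but that of the second STAT3 probe set, Bt.15334.2.A1_at.

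POU5F1, the transcription factor that marks pluripotent cells, was measured by probe set Bt.23612.1.S1_at. Its log2 expression was 13.32, 12.99 and 12.65 in degenerative pools A, B and C, against 12.59, 12.34 and 12.60 in blastocyst pools A, B and C. Every degenerative pool was above every blastocyst pool, though pool C was above the highest blastocyst pool by only 0.053. The means were 12.99 ± 0.34 in degenerative embryos and 12.51 ± 0.15 in blastocysts (SD, n = 3 each), a log2 difference of 0.48 with a standard error of 0.20 and a 95% interval from -0.04 to 1.002 (limma, adjusted p = 0.602). Without degenerative pool A the log2 difference was 0.31 (limma, adjusted p = 0.571). Over all settings run, the adjusted limma p of POU5F1 lay between 0.338 and 0.863. Of all tested probe sets, 16.5% had a log2 difference at least as large in the same direction.

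SOX2, the partner of POU5F1 on DNA, was measured by probe set Bt.27419.1.S1_at and had the largest mean difference of the 5 probe sets. Its log2 expression was 9.45, 8.82 and 8.02 in degenerative pools A, B and C, against 7.36, 8.03 and 7.82 in blastocyst pools A, B and C. Degenerative pools A and B were above all blastocyst pools, while degenerative pool C minus blastocyst pool B, the highest of its group, was -0.0038, so that the groups overlapped at their edge. The means were 8.77 ± 0.72 in degenerative embryos and 7.74 ± 0.34 in blastocysts (SD, n = 3 each). The log2 difference was 1.03 with a standard error of 0.42 and a 95% interval from -0.08 to 2.14 (limma, adjusted p = 0.601). Without degenerative pool A it was 0.68, with an interval from -0.35 to 1.72 (limma, adjusted p = 0.584). Over the settings the adjusted limma p ranged between 0.330 and 0.863. A log2 difference at least as large in the same direction was seen in 4.73% of all tested probe sets.

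KLF4, a zinc finger factor of the pluripotency network that is also made in many epithelia, was measured by probe set Bt.1424.1.S1_at. Its log2 expression was 14.39, 13.68 and 13.54 in degenerative pools A, B and C, against 13.39, 13.31 and 13.37 in blastocyst pools A, B and C. The groups did not overlap, the gap between the lowest degenerative pool and the highest blastocyst pool being 0.15, and the blastocyst pools lay close together. The means were 13.87 ± 0.45 in degenerative embryos and 13.36 ± 0.04 in blastocysts (SD, n = 3 each), a log2 difference of 0.51 with a standard error of 0.25 and a 95% interval from -0.13 to 1.16 (limma, adjusted p = 0.628). Without degenerative pool A the log2 difference was smaller, at 0.26, and its interval from 0.08 to 0.43 did not include 0. Its unadjusted limma p was then 0.0175, and its adjusted p of 0.377 was the lowest over the settings run, the highest being 0.863. Of all tested probe sets, 15.4% had a log2 difference at least as large as that of KLF4 with all pools, in the same direction.

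STAT3, the transcription factor that JAK kinases activate downstream of LIF and IL6 receptors, was measured by 2 probe sets. Probe set Bt.15334.1.S1_at read 11.09, 9.31 and 8.56 in degenerative pools A, B and C, against 9.28, 9.42 and 9.25 in blastocyst pools A, B and C. The blastocyst pools were close together and lay between the highest degenerative pool, A, and the lowest, C. The means were 9.66 ± 1.30 in degenerative embryos and 9.32 ± 0.09 in blastocysts (SD, n = 3 each), a log2 difference of 0.34 with a 95% interval from -1.48 to 2.16 (limma, adjusted p = 0.884). Without degenerative pool A the sign turned, to a log2 difference of -0.38 (limma, adjusted p = 0.626).

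The second STAT3 probe set, Bt.15334.2.A1_at, read 9.14, 10.11 and 8.64 in degenerative pools A, B and C, against 8.45, 9.73 and 8.75 in blastocyst pools A, B and C. Here pool B was the highest of each group, and the groups overlapped over most of their range. The means were 9.30 ± 0.75 in degenerative embryos and 8.98 ± 0.67 in blastocysts (SD, n = 3 each), a log2 difference of 0.32 with a 95% interval from -1.09 to 1.72 (limma, adjusted p = 0.847). Without degenerative pool A the log2 difference was 0.39 (limma, adjusted p = 0.833), and without degenerative pool B it was -0.09. Over the 6 pools the 2 STAT3 probe sets correlated at r = 0.18, so they did not follow each other from pool to pool.

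**Figure D2:**
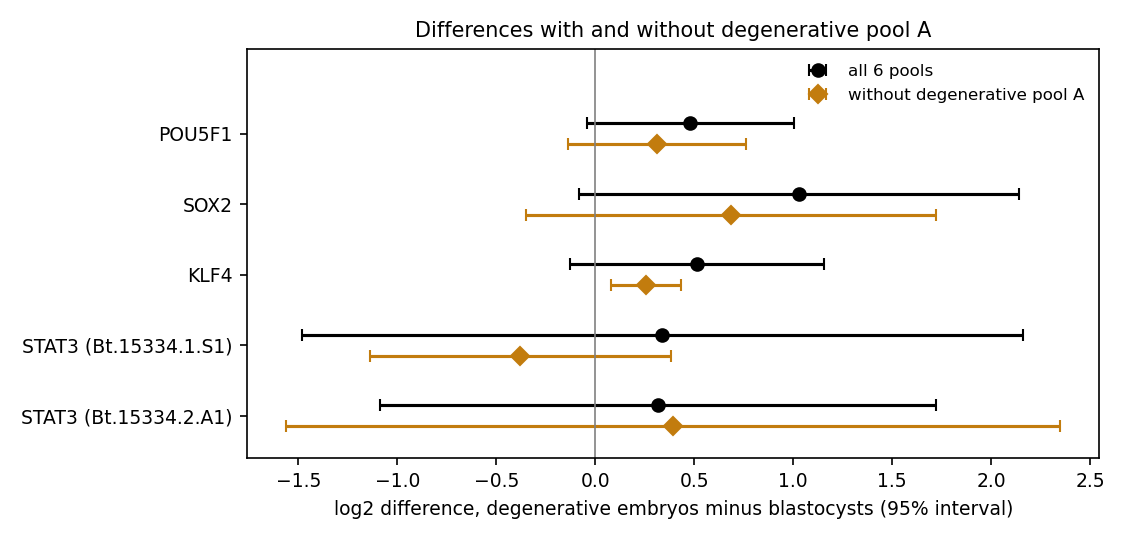
Log2 difference, degenerative embryos minus blastocysts, of each probe set with all 6 pools (black circles) and without degenerative pool A (orange diamonds), with 95% limma intervals. With all pools every interval includes 0. Without pool A the interval of KLF4 lies above 0 and the estimate of STAT3 Bt.15334.1.S1_at below it.

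Taking the members as a group, limma called 0 of 5 probe sets at an adjusted p of at most 0.15, and 0 of 5 had an unadjusted p under 0.05. Over the whole table limma called 4 of 18937 probe sets, or 0.0211%, of which 1 was higher and 3 were lower in degenerative embryos. With the pool letter as a block it called 0. Without degenerative pool A, limma called 42 probe sets, or 0.222%, again with 0 members, and KLF4 was the only member with an unadjusted p under 0.05. SAM, the permutation method that the study used, called 67 probe sets, or 0.354%, of which 4 were higher and 63 lower in degenerative embryos. It called 0 of the 5 members. POU5F1 and SOX2 had SAM permutation p-values of 0.0468 and 0.0477 before adjustment, against unadjusted limma p-values of 0.0643 and 0.0632. Each SAM p-value was read from the relabeled values of all tested probe sets together. The share of all probe sets under 0.05 by SAM was not counted.

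All 5 member probe sets had a higher mean in degenerative embryos, 4 of them without degenerative pool A. Their median log2 difference was 0.48 with all pools and 0.31 without degenerative pool A, against 0.00 over all tested probe sets in both cases, and 51.8% of all tested probe sets had a higher mean in degenerative embryos. In 2 of the 5, POU5F1 and KLF4, every degenerative pool was above every blastocyst pool, as in 6.48% of all tested probe sets. Degenerative pool A was the highest of the 6 pools in 4 of the 5, against 30.4% of all tested probe sets.

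Some genes followed a member closely from pool to pool. Among 4794 candidate probe sets with a single gene symbol, a mean of at least 5 and a range of at least 1, the highest Pearson correlations with SOX2 over the 6 pools were those of RRAD (r = 0.998), RALY (r = 0.997) and HSPBP1 (r = 0.995). For KLF4 they were those of TMEM184C (r = 0.998), KIF4A (r = 0.998) and KIF22 (r = 0.995). For STAT3 probe set Bt.15334.1.S1_at they were those of FZD4 (r = 0.993), SMYD2 (r = 0.993) and CMKLR2 (r = 0.992). Each of these correlations has only 6 points, the pools of both groups, and was picked as the highest among all candidates. Degenerative pool A was the highest pool of all 9 genes, as it was of SOX2, KLF4 and this STAT3 probe set. The selection by correlation made this likely in advance. POU5F1 varied by less than 1 over the pools and was not searched.

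The pathways around the members were described through 5 lists with 1 probe set per gene, that with the highest mean. Of 128 genes listed, 64 were on the array and 62 were tested, with 39 higher and 23 lower in degenerative embryos. Limma called 0 of the 62, and 10 had an unadjusted p under 0.05, which is 16.1%, against 10.3% of all genes tested. Their median log2 difference was 0.09, against 0.02 over all genes, of which 54.5% had a higher mean in degenerative embryos. SAM called 1 gene of the 62, SOCS2, and 0.354% of all tested probe sets. Apart from genes picked for their roles, the genes named below had the smallest unadjusted limma p of their list. That choice favors genes whose groups do not overlap. Every degenerative pool was above every blastocyst pool in 6.48% of all tested probe sets. The share with every degenerative pool below every blastocyst pool was not counted.

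**Figure D3:**
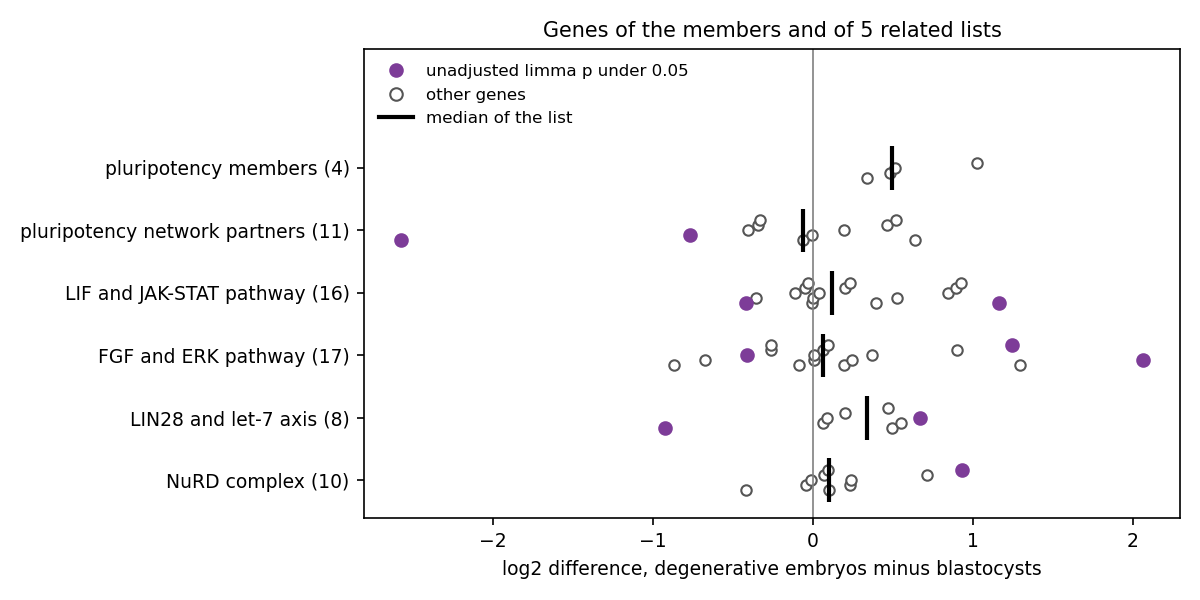
Log2 difference, degenerative embryos minus blastocysts, of every tested gene of the members (1 probe set per gene) and of the 5 pathway lists, with the number of genes in brackets, filled points for an unadjusted limma p under 0.05 and a black bar at each median. Both signs occur in every pathway list, and the 4 member genes lie above 0.

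Among the ligands, receptors and kinases of the LIF and JAK-STAT pathway, limma and SAM called none. LIF itself read 2.50 in all 6 pools, and the oncostatin M receptor OSMR 2.18 to 2.28, both close to the floor, where a difference cannot be seen. IL6, a cytokine that signals to STAT3, had log2 expression of 10.93, 9.89 and 10.44 in degenerative pools A, B and C, against 9.96, 9.41 and 10.30 in blastocyst pools A, B and C, and the groups overlapped (limma, adjusted p = 0.728). Its receptor IL6R read 10.66, 8.49 and 8.18 in degenerative pools A, B and C, against 8.005, 8.56 and 8.21 in blastocyst pools A, B and C. Only degenerative pool A was outside the blastocyst range on the high side, and without it the log2 difference of IL6R was 0.07 in place of 0.85. The kinase JAK1 read 10.52, 11.12 and 11.64 in degenerative pools A, B and C, against 11.42, 11.47 and 11.45 in blastocyst pools A, B and C, with degenerative pools on both sides of the blastocysts. LIF, IL6, IL6R, OSMR, JAK1 and, below, SOCS3, KLF5 and NR5A2 were picked for their roles after their values had been seen.

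Feedback inhibitors and other STAT factors of this list included the only gene that passed a test. SOCS2, which dampens cytokine receptor signaling, had a lower mean in degenerative embryos and was called by SAM with 15% false discoveries allowed. Its log2 expression was 9.75, 9.82 and 9.81 in degenerative pools A, B and C, against 10.21, 10.11 and 10.32 in blastocyst pools A, B and C. The groups did not overlap and the pools of each lay close together. SOCS2 was named for the smallest unadjusted limma p of its list, a choice that favors groups without overlap. The means were 9.79 ± 0.04 in degenerative embryos and 10.21 ± 0.10 in blastocysts (SD, n = 3 each). The log2 difference was -0.42 with a standard error of 0.07, and limma did not call it (adjusted p = 0.391). SAM as run here had no guard against very small spreads, so the closeness of the pools itself favored a call. SOCS3, the inhibitor that STAT3 itself induces, was at 2.12 to 2.13 in all pools, at the floor, where a difference cannot be seen. STAT5B, a second STAT factor of cytokine receptors, read 4.71, 3.90 and 4.35 in degenerative pools A, B and C, against 2.97, 3.23 and 3.26 in blastocyst pools A, B and C, without overlap (limma, adjusted p = 0.451). PIAS3, a protein inhibitor of STAT3, had a log2 difference of 0.89 (limma, adjusted p = 0.628), and the phosphatase PTPN6 one of 0.92 (limma, adjusted p = 0.673). Without blastocyst pool A these were 0.52 and 0.41. Of the 16 genes tested in this list 10 were higher and 6 lower in degenerative embryos, with a median log2 difference of 0.12. Leaving out degenerative pool A, 13 were higher and 3 lower, with a median of 0.27, and over all pools left out singly the median lay between 0.02 and 0.27.

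Partners of POU5F1 and SOX2 in the pluripotency network showed no common direction. Of 11 tested genes, 4 were higher and 7 lower in degenerative embryos, and the median log2 difference was -0.06, with a range of -0.26 to 0.08 when single pools were left out and its highest value without degenerative pool A. DNMT3A, which methylates DNA anew as lineages form, averaged 11.61 ± 0.26 in degenerative embryos and 12.38 ± 0.19 in blastocysts (SD, n = 3 each), a log2 difference of -0.77 (limma, adjusted p = 0.479), and a second probe set had -0.55. MYC, a growth regulator and reprogramming factor, read 4.95, 8.24 and 7.66 in degenerative pools A, B and C, against 9.82, 9.60 and 9.16 in blastocyst pools A, B and C. All degenerative pools were lower, pool A most of all, with a log2 difference of -2.57 that was -1.57 without pool A (limma, adjusted p = 0.578 with all pools). The repressor PRDM1 had a log2 difference of 0.19 (limma, adjusted p = 0.644), and the helix-loop-helix factor TCF3 one of 0.47 (limma, adjusted p = 0.677). With single pools left out they ranged between 0.14 and 0.295 for PRDM1 and between 0.27 and 0.65 for TCF3. TCF3 is in the list by its symbol, and the counts and median above include it. This gene is not the factor of the pluripotency network that was once called TCF3. KLF5, a relative of KLF4 needed for the early mouse embryo, read 13.18, 12.35 and 12.96 in degenerative pools A, B and C, against 13.33, 13.26 and 12.93 in blastocyst pools A, B and C. Its groups overlapped, and its mean was lower in degenerative embryos while that of KLF4 was higher. NR5A2, a nuclear receptor that acts on POU5F1 in the mouse, was dim, between 3.24 and 3.28 in all pools. Whether it was above background was not tested.

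The FGF and ERK pathway steers cells of the inner cell mass toward hypoblast. In its list, which stands around the unmeasured member FGF4, 11 of 17 genes were higher and 6 lower in degenerative embryos, with a median log2 difference of 0.06 that lay between 0.01 and 0.13 when single pools were left out. The ligand FGF2 read 5.40, 4.80 and 5.69 in degenerative pools A, B and C, against 2.53, 3.37 and 3.79 in blastocyst pools A, B and C. Its groups did not overlap, with a log2 difference of 2.06 (limma, adjusted p = 0.451), while another FGF2 probe set was at the floor in all pools. The receptor FGFR4 averaged 9.04 ± 0.85 in degenerative embryos and 7.79 ± 0.26 in blastocysts (SD, n = 3 each; limma, adjusted p = 0.580). The receptor FGFR2 had a log2 difference of -0.68 (limma, adjusted p = 0.677), which was -0.28 without degenerative pool C. NRAS, a GTPase between receptor and kinases, averaged 12.08 ± 0.09 in degenerative embryos and 12.49 ± 0.17 in blastocysts (SD, n = 3 each; limma, adjusted p = 0.509).

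Around LIN28A, the RNA-binding protein that blocks maturation of let-7 microRNAs, 8 genes were tested, with 7 higher and 1 lower in degenerative embryos and a median log2 difference of 0.34, or 0.17 without blastocyst pool A. Leaving out degenerative pool A, 6 were higher and 2 lower, with a median of 0.28, and without both A pools the median was 0.11. The lower gene with all pools was IGF2BP3, an RNA-binding protein of the embryo. It read 10.08, 10.09 and 10.15 in degenerative pools A, B and C, against 11.37, 11.03 and 10.69 in blastocyst pools A, B and C. The groups did not overlap, with a log2 difference of -0.92 (limma, adjusted p = 0.451), and a second probe set had -0.95. AGO2, the protein that carries microRNAs to their targets, averaged 11.10 ± 0.27 in degenerative embryos and 10.43 ± 0.16 in blastocysts (SD, n = 3 each; limma, adjusted p = 0.492). A dimmer AGO2 probe set had a log2 difference of 0.96, which was -0.39 without degenerative pool A. TUT7, which adds uridines to let-7 precursors, had a log2 difference of 0.55 (limma, adjusted p = 0.624), and DGCR8, a subunit of the microRNA processing complex, one of 0.20 (limma, adjusted p = 0.673), which was 0.09 without blastocyst pool A.

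SALL4 recruits the NuRD chromatin remodelling complex, of which 10 genes were tested, 7 higher and 3 lower in degenerative embryos, with a median log2 difference of 0.10 that lay between 0.06 and 0.19 when single pools were left out. The ATPase subunit CHD4 averaged 11.23 ± 0.38 in degenerative embryos and 10.30 ± 0.21 in blastocysts (SD, n = 3 each), a log2 difference of 0.94 (limma, adjusted p = 0.491). The scaffold MBD3 read 8.10, 7.04 and 7.02 in degenerative pools A, B and C, against 6.66, 6.70 and 6.67 in blastocyst pools A, B and C. All degenerative pools were higher, pool A by the most, with a log2 difference of 0.71 (limma, adjusted p = 0.624) that was 0.36 without pool A (limma, adjusted p = 0.153). The histone-binding subunit RBBP7 had a log2 difference of 0.24 (limma, adjusted p = 0.696), which was 0.12 without degenerative pool A. MTA2, another subunit, was dim in every pool, with 2.65, 2.54 and 2.48 in degenerative pools A, B and C, against 2.49, 2.49 and 2.38 in blastocyst pools A, B and C (limma, adjusted p = 0.708).

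The levels of marker lists for the other lineages, and for cells that embryo pools could carry, are set here beside those of the members, with no test of a list. The mean log2 level of the 4 member genes was 10.69 to 12.06 in degenerative pools and 10.66 to 10.77 in blastocyst pools. That of 12 trophectoderm markers was 8.16 to 9.10 in degenerative pools and 9.14 to 9.51 in blastocyst pools, so degenerative pool A, the highest for the members, was the lowest for trophectoderm. Of 11 trophectoderm genes tested, 3 were higher and 8 lower in degenerative embryos, with a median log2 difference of -0.26, or -0.15 without degenerative pool A, and DLX3 and HAND1 were near the floor in all pools. TFAP2A, a trophectoderm transcription factor, read 4.78, 6.98 and 6.47 in degenerative pools A, B and C, against 9.26, 8.96 and 8.70 in blastocyst pools A, B and C (limma, adjusted p = 0.470). The log2 difference was -1.005 for the prostaglandin synthase PTGS2, -1.18 for the keratin KRT19 and -1.10 for the factor ELF5, and limma called none of the 11. Another PTGS2 probe set had -3.61, with degenerative pool A at the floor, and -0.68 without that pool. A dimmer PTGS2 probe set had 0.88, which was -0.22 without degenerative pool A. TFAP2A, PTGS2, KRT19 and ELF5 were named for the smallest unadjusted limma p of the list. Elsewhere in the list the log2 difference was -1.01 for IFNT2, -0.26 for ATP1B1, -0.06 for KRT18 and -0.04 for KRT8. SLC2A1 had 0.43, TEAD4 0.02 and DLX3 0.01. The log2 difference was -0.51 for KRT19 and -0.24 for ELF5 once degenerative pool A was left out. The part of trophectoderm RNA in the values of the members was not tested.

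The mean level of 12 hypoblast markers was 9.74 to 10.07 in degenerative pools and 9.63 to 9.93 in blastocyst pools. It was again highest in degenerative pool A, and the groups overlapped, as did those of the member genes. Of 11 genes tested 6 were higher and 5 lower in degenerative embryos, with a median log2 difference of 0.13, and without degenerative pool A 4 were higher and 7 lower, with a median of -0.03. Among them the log2 difference was -0.57 for DAB2, an endocytic adaptor, 0.62 for the collagen COL4A1, 1.17 for GATA4, a hypoblast transcription factor, and 0.54 for RSPO3, a secreted WNT agonist. With single pools left out, these ranged between 0.37 and 0.87 for COL4A1, 0.59 and 1.79 for GATA4, and 0.31 and 0.96 for RSPO3. The mean level of 9 oocyte transcripts was 3.47 to 4.25 in degenerative pools, highest in pool A, and 2.89 to 3.13 in blastocyst pools. All 7 oocyte genes tested had a higher mean in degenerative embryos, with a median log2 difference of 0.91. Leaving out degenerative pool A, 6 were higher and 1 lower, with a median of 0.50. BMP15, GDF9 and MOS were near the floor in all pools. KPNA7, an importin of the oocyte, read 4.95, 3.57 and 3.35 in degenerative pools A, B and C, against 2.23, 2.23 and 2.74 in blastocyst pools A, B and C (limma, adjusted p = 0.542). The log2 difference was 0.76 for OOEP, 1.40 for ZP2 and 0.91 for ZP4, the last 2 being proteins of the zona pellucida. That of ZP2 was 0.50 without degenerative pool A, and that of OOEP was 0.49 when degenerative pool C was left out. ZP4 lay at the floor in all 3 blastocyst pools and in degenerative pool A, and read 3.56 and 3.41 in degenerative pools B and C, so its difference is set against values not above background. It passed the threshold only without degenerative pool A, on that footing (limma, adjusted p = 0.102). The part of oocyte RNA in the values of the members was not tested.

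Lists for cells that can adhere to embryos in culture did not separate the groups. The mean level of 14 cumulus and granulosa markers was 4.18 to 5.94 in degenerative pools and 4.51 to 5.66 in blastocyst pools, with AMH, FOXL2, INHA and PGR near the floor in all pools. That of 8 spermatozoa markers was 3.62 to 3.86 in degenerative pools and 3.67 to 4.04 in blastocyst pools, with AKAP3, AKAP4, ODF1, PRM2 and TNP2 near the floor in all pools. In the cumulus and granulosa list the log2 differences were 1.58 for VCAN, 2.51 for INHBA, -0.52 for FSHR and -2.08 for CYP19A1. With single pools left out they ranged between 1.37 and 3.35 for INHBA, -0.76 and -0.34 for FSHR, and -3.14 and -1.09 for CYP19A1. FSHR read 2.12 to 2.19 in degenerative pools and 2.19 in blastocyst pool A, close to the floor. CYP19A1 was dim in the same pools, with 2.55 to 2.75 in degenerative pools and 2.60 in blastocyst pool A. Elsewhere in the list the log2 difference was 3.02 for PTX3 and -2.16 for HSD3B1. In the spermatozoa list the log2 difference was -0.44 for ODF2 and -0.77 for TNP1, which lay between -1.56 and -0.07 when single pools were left out. Those of AKAP4 (0.14) and PRM1 (0.20) each vanished without 1 degenerative pool, B for AKAP4 and C for PRM1. Limma called none of these genes. In both lists degenerative pool A, the highest pool of 4 of the 5 member probe sets, was the lowest of the 6.

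**Figure D4:**
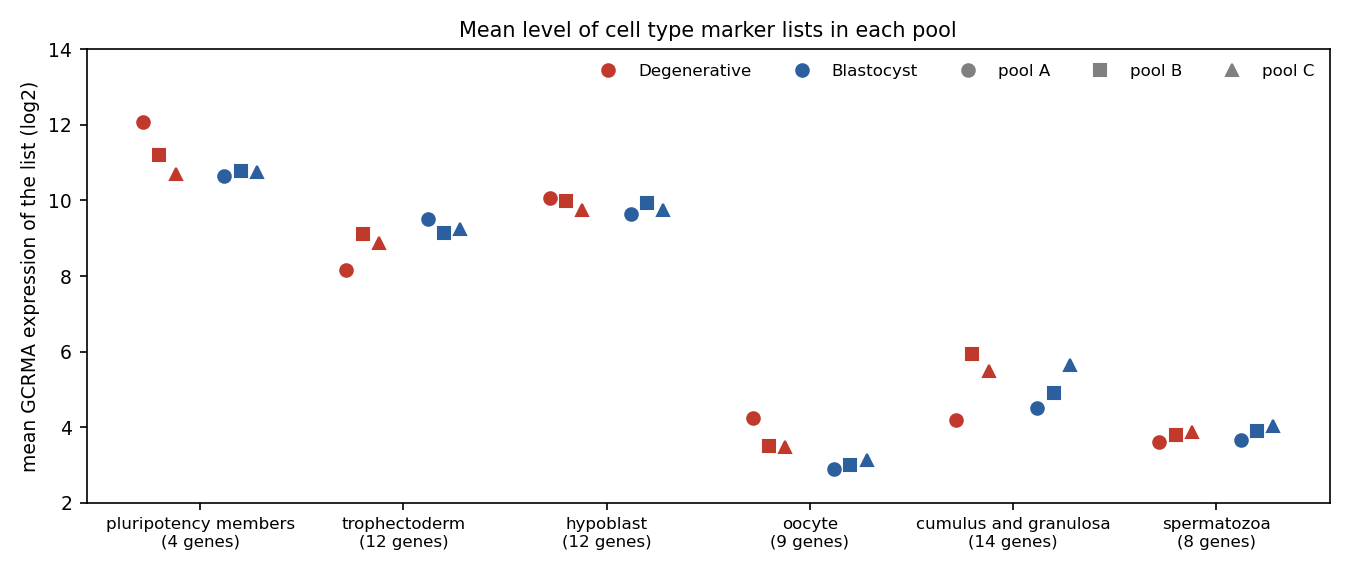
Mean GCRMA expression (log2) of the member genes and of 5 marker lists in each pool, degenerative embryos (red) left of blastocysts (blue), with pools A, B and C as marker shapes. Degenerative pool A is the highest of the 6 pools for the members, the hypoblast list and the oocyte list, and the lowest for the trophectoderm, cumulus and granulosa, and spermatozoa lists.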

How the data were processed

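Total RNA of 6 embryo pools was amplified, hybridized to the Affymetrix Bovine Genome Array and scanned. The methods describe a second round of amplification that labeled the RNA, and the labels give 1 round ahead of it. Per probe set, the authors deposited log2 expression values from GCRMA 2.14.1 (the version is that of the submitters' processing notes), which corrects background from probe sequence, normalizes by quantiles and summarises by median polish. Quantile normalization makes the arrays' distributions alike, and GCRMA compresses low values toward the floor. Detection calls were left aside. There is no read depth on an array, so precision rests on how many pools there are.

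Of 24036 probe sets, 20 controls and 5079 that were constant over the arrays were dropped, following the methods. Names came from the platform annotation updated by gene ID (13283 of 13312 probe sets with 1 symbol matched). Of the tested probe sets 11002 had 1 symbol, 64 several and 7871 none, and none was named from several. The test of degenerative embryos minus blastocysts was that of limma 3.58.1 under R 4.3.3 (lmFit, eBayes, Benjamini-Hochberg over 18937 probe sets, adjusted p of at most 0.15). Limma p-values set the difference between groups against the spread between pools, with variances moderated over all probe sets. A gene was called near the floor where all pools lay within 0.5 of it. Both tests were run on simulated data with independent noise, no outlying pool and a shift larger than any member difference. That check cannot tell how the tests perform at differences of the members' size.

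SAM was rewritten for this purpose and used all relabelings of the pools. The smoothing spline that estimates the share of unchanged probe sets was changed after its counts had been seen. A spline with its penalty chosen by cross-validation, used first, gave 61 calls, a weighted spline with 3 degrees of freedom 75, and the unweighted one, kept, 67. The count that the study gives was known at that point, so the count kept is no independent result. The default of the study's software was not checked. The fudge factor came to 1.03e-08, which gives no guard against very small spreads, and a value of 0 gave 67 calls too.

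The members and lists were chosen with earlier results of these data known. All member probe sets were named, and of each list up to 4 genes with the smallest unadjusted limma p. The 3 genes most correlated with a member were named too. A planned search of promoters for motifs was not run, as no promoter sequence was used here.

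Over all probe sets, the pools' deviations from their group mean correlated at r = 0.373 between the A pools, 0.180 between the B pools and 0.275 between the C pools, so the letters were treated as pairs in an alternative. Degenerative pool B correlated more with blastocyst pool C (r = 0.374) than with blastocyst pool B. Other alternatives were centring, a filter on dim probe sets, a trended and robust variance, other thresholds, and leaving out pools.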

Additional observations from a re-analysis of the deposited data

How the results depend on the processing

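With 3 pools per group the count of limma calls over all probe sets moved with every setting. The 4 calls became 1 with each array centred on its median, 1 once probe sets whose mean was below 5 in both groups were dropped, and 1 with a trended and robust variance. With the replicate block, which pairs the pools by letter, there were 0, without both A pools 0, at an adjusted p of at most 0.05 there were 0 and at 0.25 there were 30. Leaving out single pools gave 1 to 42 calls: 42 without degenerative pool A, 14 without degenerative pool C, 2 without blastocyst pool A, and 1 without each of the others. The cause was not tested. The block changed no other call.

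Limma called 0 members and 0 pathway genes in each of these settings, and SAM called 0 members with each of the 3 alternatives for its fudge factor or spline, of which both splines were added after seeing the data. SOCS2 was called by SAM in all 4 runs. Of 55 alternative values of the member differences, 3 turned sign and 0 changed a call. All 3 were of STAT3: Bt.15334.1.S1_at ranged between -0.38 and 0.88 when single pools were left out and was -0.40 without both A pools, and Bt.15334.2.A1_at ranged between -0.086 and 0.70. For other named genes, 474 alternative values were counted, with 1 probe set per gene. LIF, OSMR, SOCS3, NR5A2 and the genes picked by correlation were left out. Of the 474, 2 turned sign. IL6R was -0.053 without both A pools. PRM1, a sperm protamine, was -0.0075 without degenerative pool C, in a range up to 0.303 when single pools were left out. Of the 474, 1 was newly called, ZP4, with 1.36 without degenerative pool A (limma, adjusted p = 0.102), against blastocyst pools that all lay at the floor. Other probe sets of these genes were not counted, such as the dimmer AGO2 probe set that turned to -0.39 without degenerative pool A. Values near the floor limit what can be seen of dim genes, and a p that missed the threshold does not show that values were equal.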
